A study of Mus musculus with 1824 samples.

Results

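The set described here was 10 genes of the extracellular matrix, out of 55487 genes in the deposited count table. The members were the collagen IV chain genes Col4a1 and Col4a2, the laminin chain genes Lama1, Lamb1 and Lamc1, the nidogen gene Nid1, the cell-binding matrix genes Fn1 and Npnt, and the genes Col1a1 and Postn of the stroma outside basement membranes. They were chosen by name, and each matched 1 Ensembl gene. The table held RNA reads of 1824 single cells from mouse embryos of embryonic day 7.5 (E7.5) or 8.5 (E8.5), made with Smart-seq2, which copies whole transcripts of sorted cells and records neither the strand nor the molecule of a read. The embryos were chimaeras, made with embryonic stem cells that lack the Tet1, Tet2 and Tet3 genes (Tet triple knockout) and carry a CAG-driven H2B-tdTomato marker. These cells, from 1 stem cell line, were injected into C57BL/6J blastocysts that then developed in CD1 recipients. CD1 is the strain given by the labels of every cell at both stages. Cells were stained for KDR, which marks the progenitors of vessels and blood, and CD41, which marks early blood cells. Live single cells were sorted into plates. The paper describes a multi-omics protocol, with most cells treated with a GpC methylase to label open chromatin, and further cells sequenced for RNA only. The sizes of these sets match the numbers of E8.5 and E7.5 cells, in that order. The labels do not name the protocol, so stage and protocol could not be separated. The E7.5 plates are named here as embryos 1, 2, 4 and 5, a chimera plate and lane plates 1 to 6, and the E8.5 plates as 1 to 8. The labels of a cell give neither its genotype nor its sort gate, so no comparison of knockout with host cells was made, and the mix of cells on a plate reflects the sort. Cell classes may differ in their share of knockout cells, so differences between classes may include genotype, which was not tested. In separate single-cell data of such chimaeras, the paper found no injected cells in the trophoblast.

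Basement membranes are thin sheets of matrix under epithelia and around vessels. Laminin trimers of an alpha, a beta and a gamma chain join into a network at the cell surface, and collagen IV, a trimer of chains made by Col4a1 and Col4a2, forms a further network that nidogen links to laminin. In the early mouse embryo such a sheet lies under the epiblast and the visceral endoderm, and parietal endoderm cells make the thick Reichert's membrane around the conceptus. Fibronectin, made by Fn1, is laid down by mesoderm and vessels, and nephronectin, made by Npnt, is a ligand of integrins in epithelial basement membranes. Type I collagen and periostin, made by Col1a1 and Postn, belong to the looser matrix of mesenchyme.

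Col4a1 and Col4a2 are neighbours that point away from each other. On GRCm38, Col4a1 (ENSMUSG00000031502) lies on the minus strand at chr8:11198423-11312826 and Col4a2 (ENSMUSG00000031503) on the plus strand at chr8:11312805-11449287. Their annotated start sites are 21 bp apart and the first exons overlap, so unstranded reads from the overlap cannot be told apart between the genes. The RefSeq promoter windows of both genes, from 250 bases before to 50 bases after the start site, are shown because the pair had the most alike levels in the set and shares this stretch of DNA. Each is written 5′ to 3′ on the strand of its gene (chr8:11312777-11313076 for Col4a1 and chr8:11312555-11312854 for Col4a2, GRCm38.p6). Capitals mark the 78 bases that lie in both windows and so appear in both lines as reverse complements. The last line is the window of Postn (chr3:54360857-54361156, plus strand), shown for contrast as a member above 100 CPM on 2 of the 19 plates, with capitals for its TATAAA.
Col4a1: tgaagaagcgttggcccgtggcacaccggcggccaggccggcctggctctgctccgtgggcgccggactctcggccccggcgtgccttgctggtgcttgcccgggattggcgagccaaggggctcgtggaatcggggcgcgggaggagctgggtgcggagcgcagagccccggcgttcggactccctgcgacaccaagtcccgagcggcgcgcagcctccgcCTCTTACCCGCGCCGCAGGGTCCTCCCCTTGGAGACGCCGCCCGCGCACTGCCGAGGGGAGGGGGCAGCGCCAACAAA
Col4a2: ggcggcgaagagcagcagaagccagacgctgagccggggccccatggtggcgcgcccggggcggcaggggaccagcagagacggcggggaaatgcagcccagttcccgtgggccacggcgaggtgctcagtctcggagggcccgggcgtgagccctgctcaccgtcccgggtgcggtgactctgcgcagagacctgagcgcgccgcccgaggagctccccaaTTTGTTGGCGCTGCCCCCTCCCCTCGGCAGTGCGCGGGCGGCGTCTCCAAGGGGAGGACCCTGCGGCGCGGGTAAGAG
Postn: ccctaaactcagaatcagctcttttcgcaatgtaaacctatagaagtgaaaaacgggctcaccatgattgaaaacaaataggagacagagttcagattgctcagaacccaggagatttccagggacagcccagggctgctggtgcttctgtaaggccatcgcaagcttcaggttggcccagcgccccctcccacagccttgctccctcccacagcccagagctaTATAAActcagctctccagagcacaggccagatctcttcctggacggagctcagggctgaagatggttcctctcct
The Col4a1 window held 37 CpG dinucleotides and the Col4a2 window 33, against a median of 7 over all 32851 RefSeq promoter windows, and 94.4% and 91.4% of windows held fewer. The Postn window held 5 CpG, with 38.04% of windows lower. TATAAA, searched on both strands, was found in this Postn window and in none of the other 7 windows of members, and 13.6% of all windows held it. GGGCGG was found in both collagen IV windows, with 1 match in the shared bases, and in 35.7% of all windows. RefSeq windows were matched for 6 of the 10 members.

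After removal of cells with fewer than 100000 reads in genes, over 10% mitochondrial or over 20% ribosomal reads, 1634 cells were kept, on 11 plates of E7.5 and 8 of E8.5, with 57 to 94 cells a plate and a median of 678018 reads a cell. Levels are given in CPM, counts per 1000000 reads assigned to genes, summed over the cells named. Cells were clustered without the members and the other matrix genes tested, and 21 of 24 clusters were named from marker genes, giving 15 classes, each written with the ending "-like". The remaining 3 clusters stayed unnamed. Levels and ranks by class are given for classes of at least 20 cells at a stage. Below this at E7.5 were 12 caudal epiblast and neuromesodermal-like, 11 pharyngeal and cardiac mesoderm-like and 4 surface ectoderm-like cells. At E8.5 it was 1 paraxial mesoderm-like cell. The ranks cover neither these cells nor the unnamed clusters. Markers of the class were higher inside than outside it for 10 of 10 genes in endothelium-like cells of each stage, 8 of 8 in erythroid-like cells of each stage and 10 of 10 in both visceral endoderm-like groups. The weakest were 6 of 8 in E7.5 paraxial mesoderm-like cells (4 of them 2-fold) and 7 of 8 in E8.5 blood progenitor-like cells (6 of them 2-fold). An animal is named in the labels for 4 plates of E7.5 and for none of E8.5. E8.5 therefore counted as 1 sample, no test was made between stages, and the range over plates is given as the spread. A lower level in a sum of cells can come from fewer cells with the RNA or from less RNA per cell, and these cannot be told apart in the sums.

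Each class had its own mix of these genes. Among classes of at least 20 cells, endothelium-like cells held the highest Col4a1, Col4a2 and Nid1 levels at both stages. Visceral endoderm-like cells held the highest laminin chain levels at E7.5, and surface ectoderm-like cells the highest Lamb1 and Npnt levels at E8.5. Lama1 at E8.5 was alike in surface ectoderm-like, pharyngeal and cardiac mesoderm-like and extraembryonic mesoderm-like cells. Extraembryonic mesoderm-like cells held the highest Col1a1 and Postn levels at both stages. Red cells, megakaryocytes and their progenitors were low in these genes. Against the other cells of their stage, E8.5 erythroid-like cells were at least 2-fold lower in 10 of 10 members, where 31.1% of genes were, and E7.5 erythroid-like cells in 9 of 9 tested, where 27.1% of genes were. E8.5 megakaryocyte-like cells were lower in 10 of 10 (19.3% of genes) and blood progenitor-like cells in 9 (16.2% of genes). In these 4 groups 0 members were 2-fold higher, beside 4.04% and 7.47% of genes in the erythroid-like, 7.23% in the megakaryocyte-like and 5.17% in the blood progenitor-like cells. In the other direction, E8.5 extraembryonic mesoderm-like cells were at least 2-fold higher in 7 of 10 members (10.9% of genes) and lower in 0 (11.3%), and E8.5 endothelium-like cells higher in 4 (10.2%) and lower in 3 (8.63%). E8.5 surface ectoderm-like cells were higher in 4 (14.2%) and lower in 3 (9.23%), and E8.5 visceral endoderm-like cells higher in 2 (16.4%) and lower in 3 (26%). At E7.5 the endothelium-like cells were higher in 4 of 9 members (16% of genes) and lower in 1 (17.4%). The visceral endoderm-like cells were higher in 3 (15.8%) and lower in 2 (15.8%), and the extraembryonic mesoderm-like cells higher in 3 (5.7%) and lower in 0 (7.1%). Col1a1, among the last 3, passed the minimum of 10 CPM through this class alone (84.4 against 0.74 CPM in the other cells). Epiblast-like cells were lower in 6 of 9 (13% of genes) and higher in 0 (6.29%). Since the classes were drawn from the same cells, these counts are descriptions with no test. With the coarser clustering (resolution 0.5) the E7.5 erythroid-like class was gone, with 0 cells, and 65 cells of E7.5 were called megakaryocyte-like. Single plates decided some of the counts. Without E7.5 lane plate 4, 0 members were lower in E7.5 endothelium-like and 1 in visceral endoderm-like cells, and without E8.5 plate 8, 1 was lower in E8.5 endothelium-like and 1 in surface ectoderm-like cells.

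**Figure D1:**
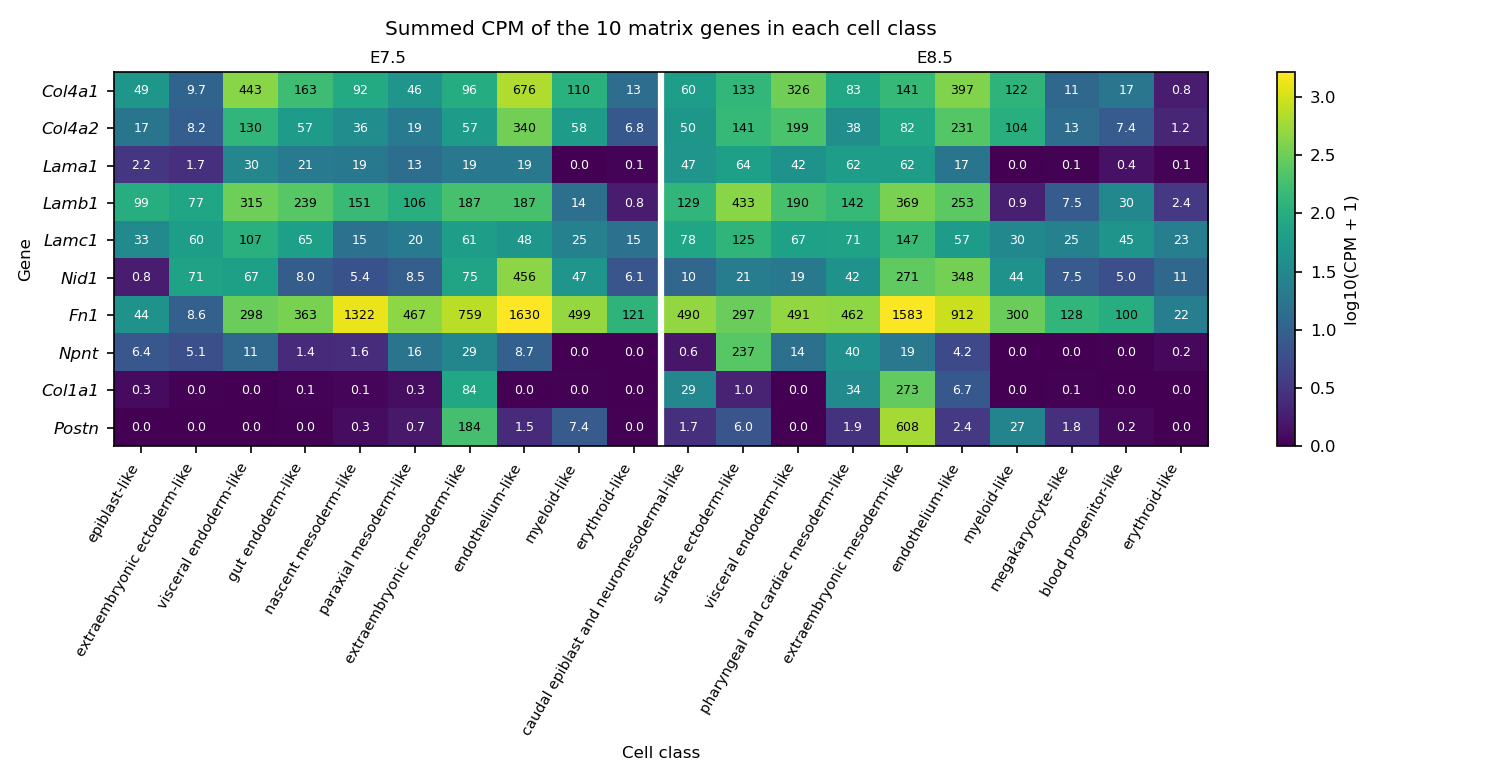
Level of the 10 members in each cell class of E7.5 and E8.5, with genes in rows and classes in columns. Classes of fewer than 20 cells at a stage and the unnamed clusters are left out. The colour is log10(CPM + 1) of the summed reads of the class, and the printed number is its CPM. Col4a1, Col4a2 and Nid1 are highest in endothelium-like cells, Npnt in E8.5 surface ectoderm-like cells, and Col1a1 and Postn in extraembryonic mesoderm-like cells, while erythroid-like cells hold at most 120.6 CPM of any member.

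Among classes of at least 20 cells, Col4a1 and Col4a2, the collagen IV chain genes, were highest in endothelium-like cells, the cells of vessels. Col4a1 stood at 676.3 CPM in the 60 endothelium-like cells of E7.5 and 397.1 CPM in those of E8.5. By plate the endothelium-like level of Col4a1 was 386.9, 856.1 and 415.3 CPM on E7.5 lane plates 1, 2 and 3, and 587.1, 490 and 145.1 CPM on E8.5 plates 3, 4 and 6. Lane plate 2 was the highest and E8.5 plate 6 the lowest, and the stages overlapped. Visceral endoderm-like cells, the layer that absorbs nutrients outside the epiblast, came next with 442.6 CPM at E7.5 and 325.8 CPM at E8.5, and their plates overlapped those of endothelium-like cells. At the low end of E7.5 were the extraembryonic ectoderm-like cells, of the trophoblast lineage, with 9.74 CPM, and the epiblast-like cells had 48.9 CPM. In the erythroid-like cells of E8.5 Col4a1 had 94 reads in all, or 0.768 CPM (95% exact Poisson interval 0.620 to 0.940; this and all other such intervals cover counting error only, as reads of amplified cDNA are not independent molecules). The E7.5 erythroid-like cells had 12.9 CPM.

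Detection gave the same picture as the sums. With every cell thinned to 100000 reads, Col4a1 had at least 1 read in 100% of the E7.5 endothelium-like cells (exact binomial interval 94.04 to 100%) and in 90.96% of those of E8.5 (85.7 to 94.7%). In erythroid-like cells, which serve as the background class here, the share was 23.9% at E7.5 and 4.86% at E8.5 (1.98 to 9.76%). Without thinning the shares of E8.5 were 94.9% in endothelium-like and 10.4% in erythroid-like cells, and the median reads per cell were 579871, 825309 and 611157 in the 3 endothelium-like clusters and 1172457, 539885 and 1045375 in the 3 erythroid-like clusters. Col4a2 was found in 87.6% of the E8.5 endothelium-like cells and 3.47% of the erythroid-like cells after thinning.

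Col4a2 followed Col4a1 in most classes, with 340 and 230.5 CPM in endothelium-like cells of E7.5 and E8.5 and 130 and 198.6 CPM in visceral endoderm-like cells. At E8.5 surface ectoderm-like cells came next, with 140.5 CPM. Within E8.5 plates 3 and 4, which held both endothelium-like and pharyngeal and cardiac mesoderm-like cells, Col4a1 was 587.1 against 161.1 CPM and 490 against 108.5 CPM. In the embryos 4 and 5 of E7.5, visceral endoderm-like cells held 510.8 and 375.5 CPM of Col4a1 against 11.7 and 8.59 CPM in extraembryonic ectoderm-like cells of the same embryo. The order within these pairs of classes therefore held inside plates as well as in the sums. Endothelium-like and visceral endoderm-like cells were not compared here inside a plate. Across cells, log levels of Col4a1 and Col4a2 had a Pearson r of 0.66 over 1634 cells and a median of 0.53 within plates, a description in which cells of a plate share preparation and depth. Of the cells with Col4a1, 72.04% also had Col4a2, and of those with Col4a2, 86.5% had Col4a1.

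The ratio of the collagen IV chain genes varied between classes and between plates. Per kilobase of exon, Col4a1 was 1.98 times Col4a2 at E7.5 and 1.39 times at E8.5. The ratio ran from 1.23 to 3.25 over the 11 E7.5 plates and from 0.945 to 1.95 over the 8 E8.5 plates, so the stages overlapped, and it was above 1 on 11 and 7 plates. E7.5 visceral endoderm-like cells had the highest ratio of the classes with enough reads, 3.03, while those of E8.5 had 1.45. The lowest of the classes outside the blood was that of the E8.5 surface ectoderm-like cells, 0.839. E8.5 erythroid-like and megakaryocyte-like cells had 0.548 and 0.738, the former from 94 reads of Col4a1.

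**Figure D2:**
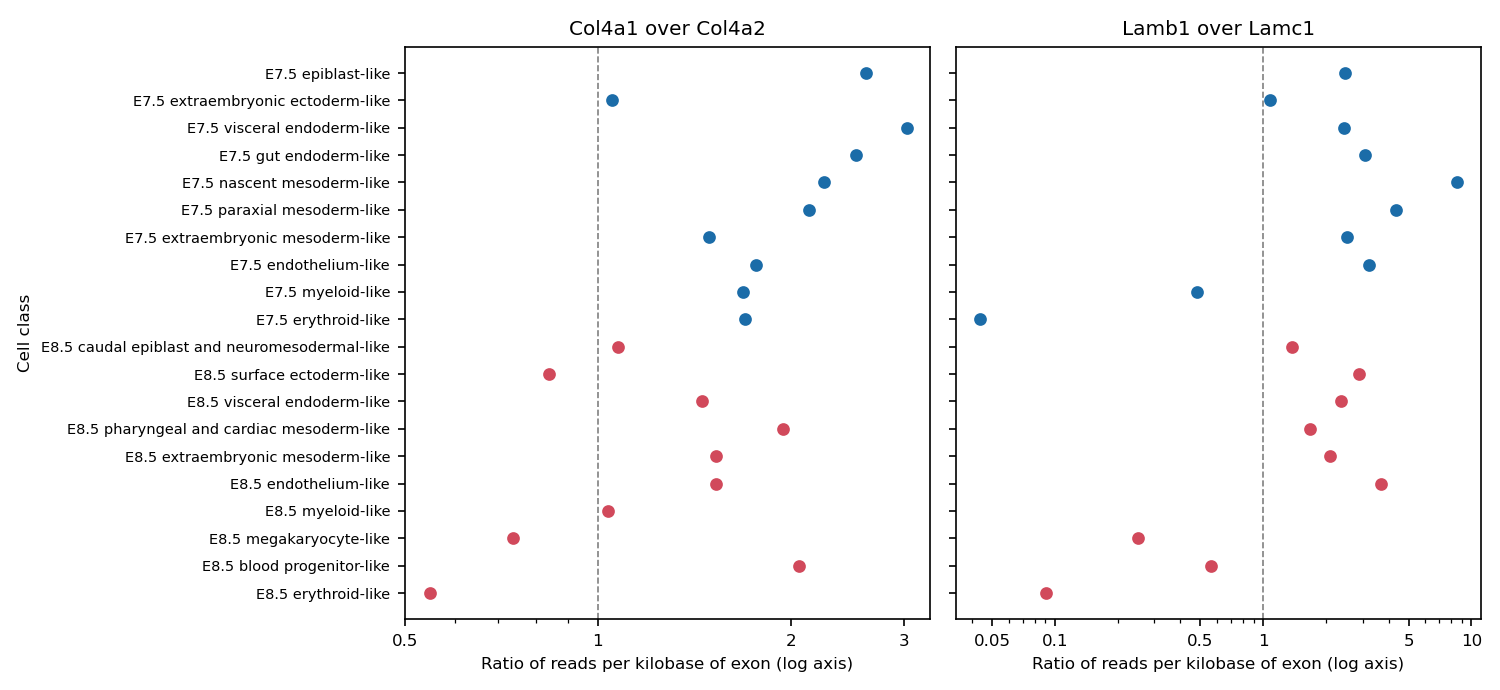
Ratio of reads per kilobase of exon (log axis) for Col4a1 over Col4a2 (left) and Lamb1 over Lamc1 (right) in each class of E7.5 (blue) and E8.5 (red) with at least 30 reads of both genes, with 1 point for the summed reads of a class and a dashed line at 1. Classes of fewer than 20 cells at a stage and the unnamed clusters are not shown. The highest Col4a1 ratio is 3.03 in E7.5 visceral endoderm-like cells. Lamb1 over Lamc1 runs from 0.0434 in E7.5 erythroid-like to 8.57 in nascent mesoderm-like cells.

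The laminin chain genes differed more from each other than the collagen IV genes did. Lama1 (ENSMUSG00000032796, chr17:67697259-67822647, plus strand) encodes the alpha chain, which binds the cell surface, Lamb1 (ENSMUSG00000002900, chr12:31265234-31329644, plus strand) the beta chain and Lamc1 (ENSMUSG00000026478, chr1:153218922-153332786, minus strand) the gamma chain. Among E7.5 classes of at least 20 cells, all were highest in visceral endoderm-like cells. The levels there were 29.6 CPM for Lama1, 314.7 CPM for Lamb1 and 107.04 CPM for Lamc1. The 2 visceral endoderm-like plates had 23.6 and 37.1 CPM of Lama1 and overlapped those of gut endoderm-like, extraembryonic and nascent mesoderm-like and endothelium-like cells. At E8.5 the order changed. Surface ectoderm-like, pharyngeal and cardiac mesoderm-like and extraembryonic mesoderm-like cells had 64.1, 62.3 and 61.9 CPM of Lama1, with overlapping plates. In the same order, 34.6%, 61.8% and 52.8% of their cells had a Lama1 read after thinning. Lamb1 stood at 432.9 CPM in surface ectoderm-like and 369.5 CPM in extraembryonic mesoderm-like cells, again overlapping over plates, and Lamc1 at 125.1 and 146.5 CPM, where plates of these classes did not overlap.

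Low laminin chain levels marked blood cells, but not for every chain. Lama1 had 0 reads in the 26 myeloid-like cells of E7.5, which allows up to 0.100 CPM (the level of 3 reads, used for all counts of 0), and 0 reads in the 34 of E8.5, which allows up to 0.149 CPM. Lamb1 was at 0.779 and 2.44 CPM in erythroid-like cells of E7.5 and E8.5, and at 14.2 and 0.893 CPM in myeloid-like cells. Lamc1 in contrast stayed at 15.0 and 22.6 CPM in erythroid-like cells and was found in 38.8% and 41.7% of them after thinning. That Lamc1 share was above the 5.97% and 6.25% of Lamb1 in the same cells, at the same depth. Of the 3 laminin members, the gamma chain gene thus had the most reads per kilobase in red cells.

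Per kilobase, Lamb1 was above the other chains in most cells. Lamb1 was 6.05 times Lama1 at E7.5 and 5.601 times at E8.5, and 2.55 and 2.16 times Lamc1. Lamb1 over Lamc1 reached 8.57 in nascent mesoderm-like cells, where Lamc1 was 14.7 CPM, and was below 1 in blood classes. It was 0.0434 and 0.0903 in erythroid-like cells of E7.5 and E8.5, 0.25 in megakaryocyte-like, 0.565 in blood progenitor-like and 0.483 in E7.5 myeloid-like cells. E8.5 myeloid-like cells had 18 reads of Lamb1, under the minimum of 30 reads set for a ratio. These ratios depend on which exons count, because Lamb1 has 9917 bases of merged exons and 5784 in its longest transcript. With the longest transcript of each gene, Lamb1 over Lama1 at E7.5 was 10.2 in place of 6.05.

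Lama1 and Lamb1 also varied inside the endothelium-like cells. Of their 3 clusters, the one led by Emcn, Gja4 and Plvap held 32.9 CPM of Lama1 and 358.3 CPM of Lamb1. The cluster led by Stab2 and Lyve1 held 4.48 and 79.5 CPM, and the cluster led by Tie1 and Esam 3.45 and 140 CPM. Col4a1 ran in another order, with 533.02, 774.6 and 248.7 CPM. The clusters shared some plates, each with at least 5 cells of both. On E7.5 lane plate 2 the Emcn cluster (27 cells) had 52.2 CPM of Lama1 and 413.7 CPM of Lamb1, and the Stab2 cluster (19 cells) 3.26 and 97.2 CPM. On E8.5 plate 3 they had 36.1 and 455.5 CPM (57 cells) against 4.05 and 118.1 CPM (14 cells). The order of these clusters thus held on both plates for Lama1 and Lamb1. Col4a1 was 851.5 against 862.3 CPM on the first plate and 498.2 against 935.95 CPM on the second. On E8.5 plate 4 the Emcn and Tie1 clusters (25 and 20 cells) had 26.7 against 6.10 CPM of Lama1, 230.6 against 252.9 CPM of Lamb1 and 292.1 against 690.7 CPM of Col4a1, so Lamb1 and Col4a1 there ran against the order of the sums. On E8.5 plates 3 and 4, endothelium-like cells had less Lama1 than pharyngeal and cardiac mesoderm-like cells, 29.6 against 89.1 CPM and 16.5 against 112.4 CPM.

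Nid1 (ENSMUSG00000005397, chr13:13437551-13512269, plus strand), the link between laminin and collagen IV, was highest in endothelium-like cells at both stages. Its level was 456.3 CPM in endothelium-like cells of E7.5 and 348.2 CPM at E8.5. By plate it was 400.5, 522.5 and 291.9 CPM at E7.5 and 541.9, 375.3 and 124.6 CPM at E8.5, and the stages overlapped. Outside the named classes, an unnamed cluster with 70 of its 71 cells from E7.5 held 219.5 CPM, with a read in 74.6% after thinning. It includes the 3 cells with very high levels described below. At E7.5 the next named class of at least 20 cells was extraembryonic mesoderm-like cells with 75.3 CPM. Over 6 plates it ran from 2.70 to 126.9 CPM and did not reach the endothelium-like plates. At E8.5 that class had 270.8 CPM and overlapped them. On E8.5 plates 3 and 4 Nid1 was 541.9 against 12.3 CPM and 375.3 against 26.3 CPM in endothelium-like against pharyngeal and cardiac mesoderm-like cells.

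Nid1 differed between the epithelia. Epiblast-like cells had 0.80 CPM and 4.13% of them a read after thinning, below the 19.4% of the E7.5 erythroid-like background. Surface ectoderm-like cells of E8.5, rich in laminin chains, had 21.2 CPM of Nid1, with 5.09 and 24.8 CPM on plates 7 and 8 against 52.6 and 52.7 CPM in pharyngeal and cardiac mesoderm-like cells of those plates. Visceral endoderm-like cells of E7.5 had 66.6 CPM, with a read in 65.4% after thinning. Extraembryonic ectoderm-like cells had 70.9 CPM of Nid1 although Col4a1 was 9.74 CPM there. Nid1 and the collagen IV genes were therefore not high in the same classes throughout.

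Fn1 (ENSMUSG00000026193, chr1:71585520-71653200, minus strand), which encodes fibronectin, had the most reads of the set, 898400 over all 1824 cells. It was 1630 CPM in endothelium-like and 1322 CPM in nascent mesoderm-like cells at E7.5, with overlapping plates. The unnamed cluster led by Zfp975 and Rgs5, with 55 of its 56 cells from E7.5, held 1569 CPM. At E8.5 it was 1583 CPM in extraembryonic mesoderm-like cells, whose plates (1356 and 1913 CPM) lay above the endothelium-like plates (380 to 1298 CPM). Epiblast-like cells had 43.9 CPM and extraembryonic ectoderm-like cells 8.60 CPM. Fn1 was found in 98.8% of nascent mesoderm-like cells after thinning, and in 58.2% and 34.03% of erythroid-like cells of E7.5 and E8.5. The last shares are those of the background class. Nascent mesoderm-like cells were not alike: the cluster led by Mesp1 and Tdgf1 held 1523 CPM of Fn1, and the cluster led by Fgf8 and T 355.9 CPM.

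Classes could be compared over animals in the named E7.5 embryos, which allowed a test with embryo as a block. The block does not balance knockout and host cells between classes, as their shares in a class are not known. The question was how members differ between epiblast-like cells and other classes of the same embryo. These were nascent mesoderm-like, endoderm-like (gut and visceral endoderm-like) and extraembryonic mesoderm-like cells. Whether a class descends from the epiblast was not tested. Fn1 in epiblast-like cells was 59.3, 54.6, 75.8 and 57.8 CPM in embryos 1, 2, 4 and 5. In nascent mesoderm-like cells it was 1365, 1809, 2112 and 1273 CPM. The groups did not overlap, and nascent mesoderm-like cells were higher in 4 of 4 embryos. In edgeR's quasi-likelihood test the log2 difference was 4.69 (SE 0.12), with a Benjamini-Hochberg adjusted p of 4.51e-05 over 14208 genes. The chimera plate, which was not in the fit, held 1125 against 18.6 CPM of Fn1 in the same direction. Of 7 members tested, only Fn1 was called higher, at 1% FDR and a log2 difference of at least 1, and 0 were called lower. In simulated data this test missed most changes of 4-fold or less, so a member not called may still differ. Of all genes 0.697% were called higher and 0.711% lower.

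**Figure D3:**
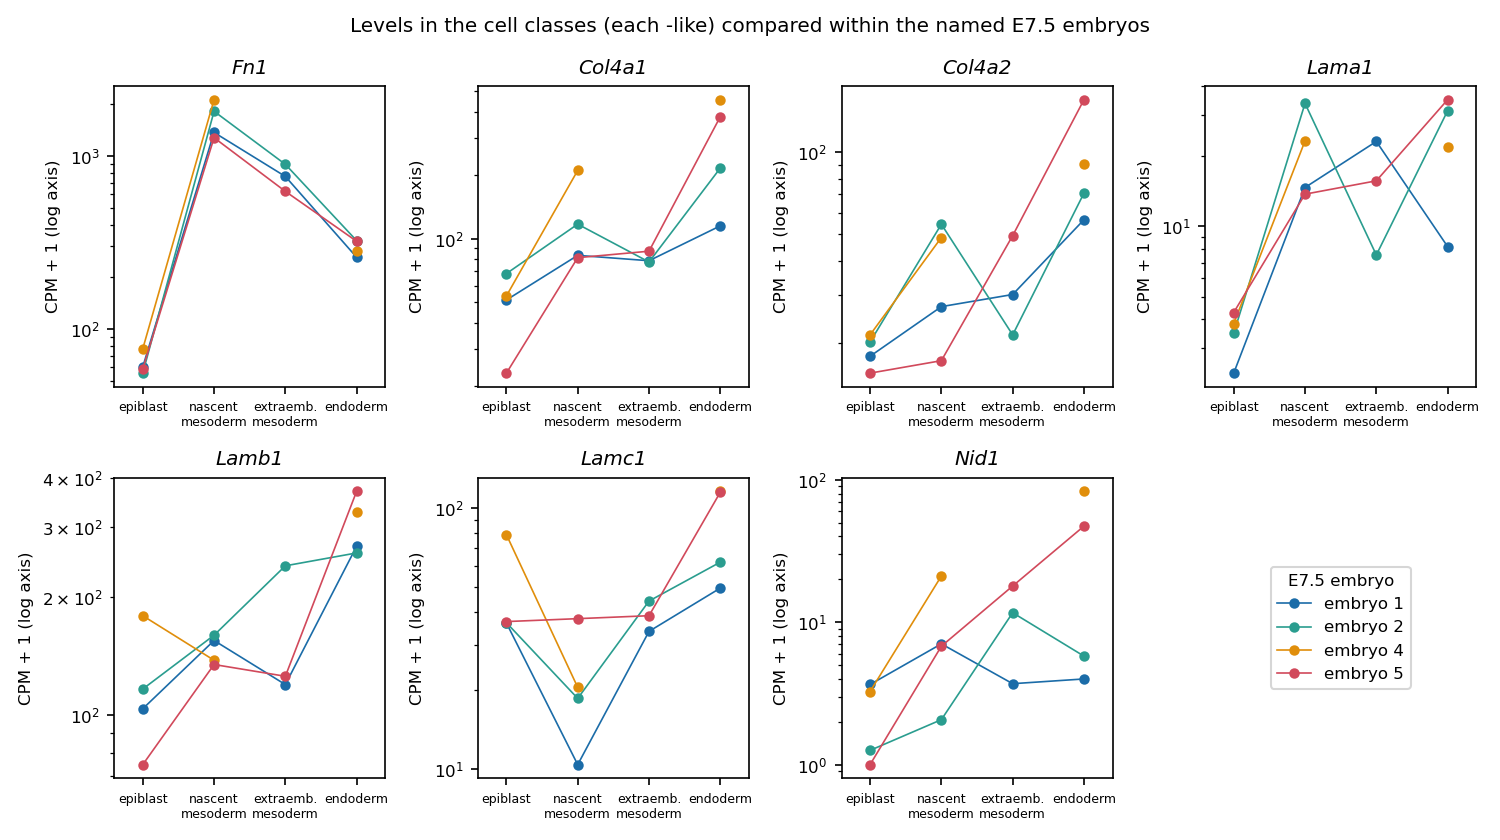
CPM + 1 (log axis) of 7 members in epiblast-like, nascent mesoderm-like, endoderm-like and extraembryonic mesoderm-like cells of E7.5 embryos 1, 2, 4 and 5 (lines join the classes of an embryo, and embryo 4 has no point where it had fewer than 5 cells). Fn1 lies between 54.6 and 75.8 CPM in epiblast-like cells and at 1273 CPM or more in nascent mesoderm-like cells of every embryo.

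The laminin alpha chain gene stood next to Fn1. Lama1 was 1.35, 2.48, 2.83 and 3.27 CPM in epiblast-like cells and 13.7, 32.7, 22.3 and 12.8 CPM in nascent mesoderm-like cells. These values did not overlap, with a log2 difference of 3.01 (SE 0.47) and an edgeR adjusted p of 0.0185, past 1% FDR and so not called. Col4a1 was higher in nascent mesoderm-like cells in 4 of 4 embryos, by 1.29 on the log2 scale (adjusted p = 0.0446, edgeR), and Lamc1 lower in 3 of 4, by −1.25 (adjusted p = 0.139, edgeR). Lamb1 differed by 0.36 (adjusted p = 0.412, edgeR). The median of the 7 members was 1.29, beside 0.02 for all genes tested. DESeq2 called Fn1, Lama1 and Col4a1 higher.

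In endoderm-like cells Fn1 was 258.3, 322.5, 280.9 and 320 CPM over the same embryos, above the epiblast-like cells in each, with no overlap. The log2 difference was 2.28 (SE 0.18, edgeR adjusted p = 0.00822), and without any 1 embryo the adjusted p was between 0.0296 and 0.0465, so that the call rests on all 4. Fn1 was the only member called of 8, beside 0.189% of all genes called higher and 0.0236% lower. Col4a1 was 114.05, 215.1, 454.4 and 377.6 CPM in endoderm-like against 50.3, 67.3, 52.6 and 22.1 CPM in epiblast-like cells. Embryos 4 and 5 were the higher ones, and their endoderm-like cells included 12 visceral endoderm-like cells each, while those of embryos 1 and 2 were all gut endoderm-like. For Col4a1 the edgeR adjusted p was 0.0783 (log2 2.50), for Col4a2 0.0418 (2.28), for Lama1 0.0530 (3.09) and for Lamb1 0.0530 (1.44), each higher in 4 of 4 embryos. DESeq2 called 6 members higher in endoderm-like cells.

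In extraembryonic mesoderm-like cells, compared in embryos 1, 2 and 5, Fn1 was 760, 892.6 and 622.7 CPM, with no overlap with epiblast-like cells. The log2 difference was 3.66 (SE 0.16, edgeR adjusted p = 0.00104), with 0.709% of genes called higher and 0.257% lower. Fn1 was again the only one of 8 members called. Col1a1 was 1.62, 12 and 28.3 CPM against 0.0817, 0 and 5.45 CPM in epiblast-like cells. The ranges overlapped, with a log2 difference of 4.69 with a wide error (SE 1.76, edgeR adjusted p = 0.209). The classes were drawn from the other genes of the same cells, so these tests describe a difference between classes so drawn.

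Npnt (ENSMUSG00000040998, chr3:132881745-132950291, minus strand), the integrin ligand of epithelia, had its high level in a single class of at least 20 cells. The 52 surface ectoderm-like cells of E8.5 held 236.7 CPM, and 80.8% of them had a read after thinning (67.5 to 90.4%), against 0.694% of erythroid-like cells. The level was 193.4 CPM on plate 7 and 254.2 CPM on plate 8, above the 43.7 and 56.5 CPM of pharyngeal and cardiac mesoderm-like cells of those plates. Over all plates the next class had 40 CPM and did not overlap. In E7.5 erythroid-like and E8.5 megakaryocyte-like cells Npnt had 0 reads, which allows up to 0.0377 and 0.150 CPM. Of the E7.5 classes with at least 20 cells, the highest was extraembryonic mesoderm-like cells with 28.6 CPM. Of its plates, lane plate 4 held 138.3 CPM and embryos 1, 2 and 5 and the chimera plate 0. Its level was 0.44 on the log2 scale above pharyngeal and cardiac mesoderm-like cells on the 1 E7.5 plate compared.

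Surface ectoderm-like cells thus joined Npnt with laminin chains and little stromal matrix. On plate 8 they had 416.8 CPM of Lamb1 against 108.7 CPM in pharyngeal and cardiac mesoderm-like cells, and on plate 7 431.5 against 166.7 CPM. Against extraembryonic mesoderm-like cells of plate 8 they had 267.7 against 1913 CPM of Fn1, 2.31 against 462.2 CPM of Col1a1 and 0.811 against 1215 CPM of Postn. Those differences are within 1 plate and have no replicate check. The cluster of this class was led by Nepn, Wnt6 and Krt7, and 9 of 9 class markers were at least 2-fold higher at E8.5. With single-cell marker scores 38 cells of E8.5 had this class and 8 a gut endoderm-like class, which the clusters did not give at E8.5.

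Col1a1 (ENSMUSG00000001506, chr11:94936224-94953042, plus strand) and Postn (ENSMUSG00000027750, chr3:54361109-54391037, plus strand), genes of fibrous and mesenchymal matrix, were highest in extraembryonic mesoderm-like cells, the lining of the yolk sac and the allantois. Col1a1 was 84.4 CPM there at E7.5 and 273.4 CPM at E8.5, and 69.8% of the E8.5 cells had a read after thinning. By plate it was 1.62, 12, 28.3, 71.3, 30.1 and 309.3 CPM in embryos 1, 2 and 5, the chimera plate and lane plates 3 and 4, and 59.6 and 462.2 CPM on E8.5 plates 4 and 8. The next E7.5 class of at least 20 cells, paraxial mesoderm-like cells, had 0.301 CPM. On the 1 E7.5 plate compared, extraembryonic mesoderm-like cells were 4.94 above pharyngeal and cardiac mesoderm-like cells on the log2 scale. At E8.5, pharyngeal and cardiac mesoderm-like cells had 33.8 CPM and caudal epiblast and neuromesodermal-like cells 29.3 CPM, with overlapping plates. Col1a1 had 0 reads in erythroid-like cells of both stages, which allows up to 0.0377 and 0.0245 CPM.

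Postn rested on a few plates. In extraembryonic mesoderm-like cells it was 184.1 CPM at E7.5 and 608.4 CPM at E8.5, in 12.7% and 41.5% of cells after thinning. Of the 6 E7.5 plates with at least 5 such cells, lane plate 4 had 1001.5 CPM and the other 5 had 0. Of the 2 E8.5 plates, plate 8 had 1215 CPM and plate 4 had 3.41 CPM. Myeloid-like cells came next, with 7.42 CPM at E7.5 and 27.5 CPM at E8.5, where 50% of them had a read after thinning, and visceral endoderm-like cells had 0 reads at both stages.

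The extraembryonic mesoderm-like cells of the stages came from different clusters. Of the 71 cells of E7.5, 63 were in a cluster led by Spin2c, Hand1 and Tbx20 and 8 in a cluster led by Acta2, Cd248 and Pitx1, which held all 53 cells of E8.5. The latter cluster had 755.9 CPM of Postn and 302.7 CPM of Col1a1, and the former 4.89 and 33.2 CPM. Between stages within the class, E8.5 was at least 2-fold higher in 6 of 10 members (11.7% of genes were higher, 10.5% lower), with log2 ratios of 1.83 for Nid1, 1.64 for Lama1, 1.24 for Lamc1, 1.06 for Fn1, 1.68 for Col1a1 and 1.72 for Postn. Lama1, Lamc1, Fn1 and Nid1 did not overlap between the 6 E7.5 and 2 E8.5 plates of the class, while Col1a1 and Postn did. Lamb1 and Col4a1, which were less than 2-fold apart, did not overlap either, and Col4a2 and Npnt did. The share of all genes without overlap on these plates was not computed.

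Over all cells the stages overlapped for every member. Differences between stages may include a difference of protocol, which was not tested. Pooled levels were 155.5 and 150.3 CPM for Col4a1, 69.8 and 96.0 CPM for Col4a2, 21.4 and 27.2 CPM for Lama1, 132.6 and 156.3 CPM for Lamb1, and 43.4 and 60.2 CPM for Lamc1 at E7.5 and E8.5. Nid1 was 69.4 and 115.08 CPM, and Fn1 780 and 475.3 CPM. Npnt was 10.1 and 23.3 CPM, Col1a1 7.5 and 26.3 CPM, and Postn 15.4 and 48.6 CPM. The last 3 were at least 2-fold higher at E8.5 and 0 were lower, beside 6.99% and 8.23% of all genes, and 0 of 10 had all E8.5 plates above or below all E7.5 plates, beside 0.384% and 1.41% of genes. E8.5 plate 8 decided this count, since without it 0 members were 2-fold higher and Postn stood at −1.07 on the log2 scale in place of 1.60.

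**Figure D4:**
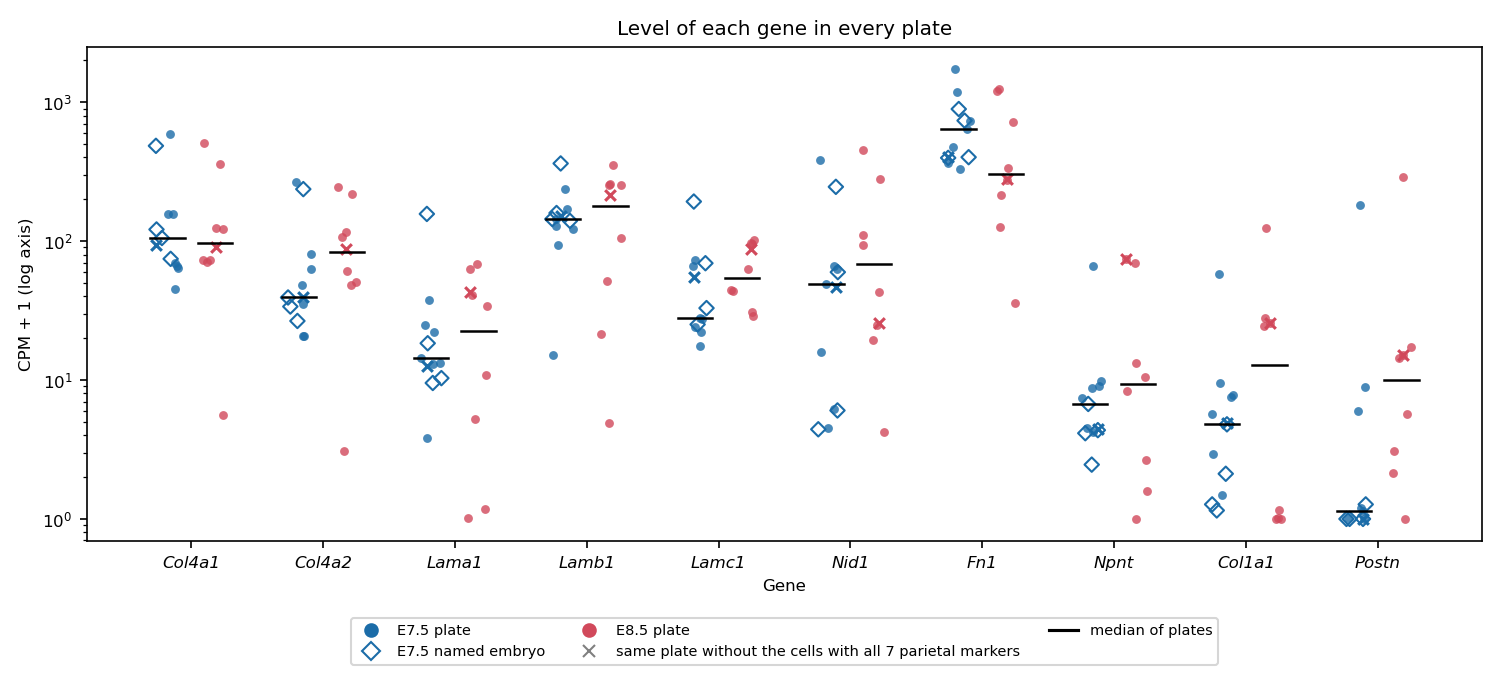
CPM + 1 (log axis) of each member on the 11 E7.5 plates (blue, named embryos as diamonds) and 8 E8.5 plates (red), with the median of the plates as a line and crosses for plates without the cells that held all 7 parietal endoderm markers. The stages overlap for all 10 members, and Postn is above 100 CPM on E7.5 lane plate 4 and E8.5 plate 8 and below 20 CPM on the others.

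The plate values spread widely. Col4a1 ran from 44.3 to 592.6 CPM over the E7.5 plates and from 4.57 to 504.1 CPM over those of E8.5. Lane plate 2, which held 46 of the 60 endothelium-like cells of E7.5, was the highest for Col4a1, Col4a2, Nid1 and Fn1 at that stage. E8.5 plate 2, which held 64 of the 82 cells of an erythroid-like cluster, was the lowest for the same 4 genes at E8.5. Within other classes present at both stages, 0 of the members with at least 10 CPM in endothelium-like cells differed 2-fold between stages (10.8% of genes higher and 9.97% lower). The erythroid-like cells of E7.5 (cells of 1 cluster) and E8.5 (cells of 2 others) shared no cluster, and those of E8.5 were lower for Col4a1 (−2.98) and Fn1 (−2.37), beside 13.2% of genes lower and 6.69% higher. Visceral endoderm-like cells were lower for Nid1 (−1.76), beside 22.1% lower and 13.2% higher, and myeloid-like cells lower for Lamb1 (−3.01) and higher for Postn (1.76), beside 14.6% and 13.1%.

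A few cells stood far from all others. In 3 of the 1634 cells each of 7 genes listed as parietal endoderm markers (Plat, Thbd, Pth1r, Gata6, Sox7, Fst and Pdgfra) had at least 10 CPM, 0 cells had 6, and 7 cells had 5. The demand for all 7 was chosen after the values were seen, so these cells are described with no test. Of the 3, the wells D01 and D03 were on the plate of E7.5 embryo 5 and H11 was on E8.5 plate 7, and all fell in an unnamed cluster. Their Col4a1 level was 26361, 13264 and 5304 CPM, against a highest value of 2756 CPM in the other 1631 cells. Lama1 was 8411, 6500 and 3206 CPM, against at most 509.1 CPM elsewhere.

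The other basement membrane members were also above every other cell, by different margins. Col4a2 was 12836, 7262 and 4577 CPM, Lamb1 11208, 11161 and 6579 CPM, Lamc1 6460, 8180 and 1584 CPM, and Nid1 12325, 8133 and 2753 CPM. The highest other cell had 2251 CPM of Nid1, close to the lowest of the 3, and 1554 CPM of Lamb1. These 6 genes took 7.76%, 5.45% and 2.40% of all reads of the 3 cells. Fn1 in contrast had 0, 1 and 0 reads, and Npnt, Col1a1 and Postn had 0. Sparc, a collagen-binding protein of basement membranes, was 31447, 19757 and 3584 CPM. Hspg2 (perlecan) was 112.6, 108.5 and 1515 CPM and Nid2, the other nidogen gene, 43.8, 240.3 and 322.2 CPM, in the same order of cells. The lone Fn1 read equals 2.58 CPM. Per kilobase, Col4a1 was 1.82, 1.62 and 1.03 times Col4a2 there, and Lamb1 1.30, 1.68 and 2.00 times Lama1, below the 6.05 and 5.601 of the stage sums. Without the 3 cells Lamb1 over Lama1 at E7.5 was 8.67.

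**Figure D5:**
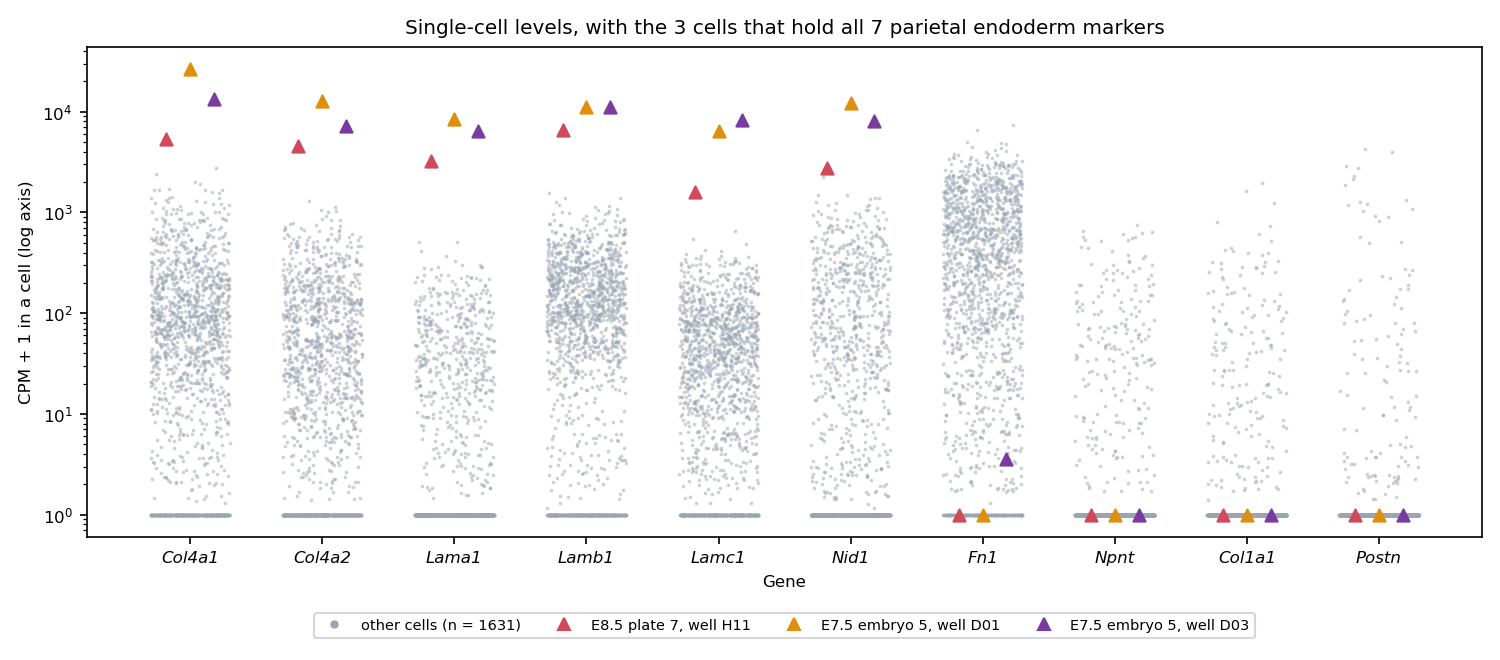
CPM + 1 (log axis) of the 10 members in the 3 cells with all 7 parietal endoderm markers (triangles) and in the other 1631 cells (grey points). The 3 cells lie above every other cell for Col4a1, Col4a2, Lama1, Lamb1, Lamc1 and Nid1 and at or near 0 for Fn1, Npnt, Col1a1 and Postn.

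These cells also moved the plate sums. They held 24.5% of all Lama1 reads and 9.59% of all Col4a1 reads of the series. With its 2 cells, embryo 5 had 483.9 CPM of Col4a1, 155.8 CPM of Lama1, 191.6 CPM of Lamc1 and 244.8 CPM of Nid1. Without them the values were 93.4, 11.5, 54.4 and 45.7 CPM, in the range of the other embryos. Over the stages, Col4a1 was −0.05 on the log2 scale (E8.5 over E7.5) with the 3 cells and 0.12 without, so its direction rests on them, and Lama1 moved from 0.33 to 0.82.

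Genes of the same pathways were taken from 7 lists, 76 genes in all. Of the other laminin chains, Lama5, the alpha chain of mature epithelia, was highest in E8.5 surface ectoderm-like cells at 342.1 CPM, and Lama4, the alpha chain of vessels, in E8.5 endothelium-like cells at 111.3 CPM, next to 109.7 CPM in E8.5 extraembryonic mesoderm-like cells. Of the other collagen IV chains, Col4a5 reached 57.4 CPM in E7.5 endothelium-like cells, and 2 of 4 reached 10 CPM in any class. Among other basement membrane components, 11 of 11 reached 10 CPM, and Sparc, Col18a1 and Hspg2 (perlecan) were highest in E7.5 endothelium-like cells at 1492, 830 and 593.3 CPM. In that class 5 of 9 tested were at least 2-fold higher and 2 lower, beside 16% and 17.4% of all genes. A gene was tested here and in the next paragraph if it had at least 10 CPM in the class or in the other cells. A gene low elsewhere could thus enter through the class alone.

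Most genes of folding enzymes and interstitial matrix were high in E8.5 extraembryonic mesoderm-like cells. There, where 10.9% of all genes were at least 2-fold higher than in the other cells and 11.3% lower, 13 of 13 tested genes of other interstitial matrix were higher, among them Vcan (720 CPM), Lum (548.3 CPM) and Col3a1 (434.8 CPM). Some of these genes, and of those in the next counts for this class, were below 10 CPM over all E8.5 cells. They were tested through this class alone, so the counts partly reflect the minimum of 10 CPM. Of the collagen folding and crosslinking genes 10 of 13 were higher and 0 lower, led by P4hb (2299 CPM), Serpinh1, the collagen chaperone (777.1 CPM), and P4ha1, a prolyl hydroxylase subunit (396.8 CPM). Matrix receptors were 7 of 13 higher and 2 lower, and proteases and inhibitors 5 of 8 higher and 1 lower. In E8.5 erythroid-like cells 12 of 12 tested receptors, 10 of 10 other basement membrane components and 11 of 12 folding genes were at least 2-fold lower, where 31.1% of all genes were. Itgb3, an integrin of platelets, was highest in megakaryocyte-like cells, and Dag1 (dystroglycan, a laminin receptor) in surface ectoderm-like cells, at 647.4 CPM.

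In the embryo tests, nascent mesoderm-like cells were higher than epiblast-like cells for Itga5, the alpha subunit of the fibronectin receptor, named here after its value was seen (log2 2.33, edgeR adjusted p = 0.00495), and for Vcan, a proteoglycan (3.21, edgeR adjusted p = 0.000688). They were lower for Lama5 (−2.12, edgeR adjusted p = 0.00981), with 108.5 to 172.7 CPM in epiblast-like and 16.3 to 44.2 CPM in nascent mesoderm-like cells and no overlap. Receptors had 1 of 12 tested genes called, other interstitial matrix 1 of 7 and other laminin chains 1 of 4. Extraembryonic mesoderm-like cells were higher for Sparc (1.35, edgeR adjusted p = 0.00931) and Vcan (3.57, edgeR adjusted p = 0.00333), and no other listed gene was called in that comparison.

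The genes with class patterns most like each member were found by Pearson r of log2(CPM + 1) over 20 sums of a class at a stage, among 12934 genes. The most similar of these genes to Col4a1 was Col4a2 (r = 0.96), with Sparc next (0.93), and these were also the leading pair for Col4a2 with Col4a1 in place of Col4a2. Nid1 was most like Adgrf5, an adhesion receptor of vessels (0.90). Col1a1 was most like Tbx4, a transcription factor of the allantois and hindlimb (0.96), Hoxd10 (0.95) and the type III collagen gene Col3a1 (0.94). Lama1 was most like B930095G15Rik (0.96) and Shisa4 (0.95), Lamb1 like Gna11 (0.95) and Rara (0.94), and Lamc1 like Pkp2, a desmosome gene (0.91). For Fn1 the gene was Rasgrp3 (0.91), for Npnt Serping1 (0.92) and for Postn Crispld2 (0.85). Tbx4 was also among the markers used to name the extraembryonic mesoderm-like class, where Col1a1 was highest. With 20 sums that share libraries, these values are descriptions. Over cells, Col1a1 and Postn had an r of 0.40, and 22.6% of the cells with Col1a1 had Postn.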

How the data were processed

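RNA was sequenced from 1824 single cells (75 bp single-end reads), and the authors aligned reads to GRCm38 with HISAT2 2.1.0 and deposited raw counts per Ensembl gene from featureCounts. From these counts CPM, exact Poisson and Clopper-Pearson intervals (95%) and shares of cells after thinning to 100000 reads were computed in Python 3.11.15. Kept cells had at least 100000 reads, at most 10% mitochondrial and at most 20% ribosomal reads. Cells were clustered with scanpy 1.11.5 (2000 variable genes, 30 components, 15 neighbours, resolution 1), members and related genes left out. No doublets were called. Ratios used a pseudocount of 1 CPM and genes with at least 10 CPM in a group. Classes were compared within named E7.5 embryos with edgeR 4.0.16, with embryo as a block because both classes came from the same animal, on counts summed over at least 5 cells, called at 1% FDR and a log2 difference of 1, and the fit was tested on simulated data. There 2, 1 and 3 of 50 genes changed 2-fold were called for the nascent mesoderm-like, endoderm-like and extraembryonic mesoderm-like designs. At 4-fold these were 22, 16 and 22 of 50, and at 16-fold 42, 28 and 35 of 50. DESeq2 1.42.0 was an alternative. Positions are those of the GENCODE annotation of GRCm38. All 10 members are named, with at most 3 genes of each related list (the highest CPM in any class) and the genes most like each member. The members and lists were chosen with earlier results of these data known. The depth of a plate was 13423662 to 170844738 reads, and no 2 kept cells had identical counts.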

Additional observations from a re-analysis of the deposited data

Results flagged for a closer look

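Values were compared over the 4 named E7.5 embryos, where a sample was marked if its gap to the nearest other was above the critical share of the whole range in Dixon's test, which chance alone does in about 1 in 20 groups. Over all cells embryo 5 stood apart for Col4a1 (483.9 CPM), Col4a2 (235.7 CPM), Lama1 (155.8 CPM) and Lamb1 (361.1 CPM). That plate held 2 of the 3 cells with all 7 parietal endoderm markers. Without them its values were 93.4 CPM of Col4a1, 38.5 CPM of Col4a2, 11.5 CPM of Lama1 and 150 CPM of Lamb1. Embryo 1 stood apart for Postn at 0.272 CPM, with 0 CPM in the other 3. With 3 values at 0 any value above 0 in the remaining embryo is marked, so this and the other marks of Postn say nothing about its size.

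In epiblast-like cells embryo 4 stood apart for Lamc1 (78.02 CPM, from 7 cells), embryo 5 for Col1a1 (5.45 CPM, from 7 cells) and embryo 1 for Postn (0.122 CPM). In nascent mesoderm-like cells embryo 1 stood apart for Postn (0.532 CPM). Their causes were not tested.

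The 3 cells with all 7 parietal endoderm markers lie in an unnamed cluster and so in no named class. They stayed among the other cells of their stage against which each class was compared. The counts of members per class were not repeated without them. Their Col4a1 levels of 26361 and 13264 CPM (embryo 5) and 5304 CPM (E8.5 plate 7) were above the highest other cell, at 2756 CPM.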

How the results depend on the processing

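The labels name no animal for the E8.5 plates, the lane plates or the chimera plate, so levels by class rest on plates, and class labels depend on the clustering: 67.4 to 85.4% of cells kept their class under 5 other settings. Percentages of all genes here are of the 55487 genes of the table, and each pair gives genes higher and genes lower. Between stages 1.25% and 1.47% of genes were 2-fold apart, 0.535% and 0.777% with a pseudocount of 10 CPM, and 2.07% and 2.58% with no minimum of 10 CPM. With resolution 0.5, 2 members were lower in E7.5 endothelium-like cells, and the E7.5 erythroid-like class, which also served as background, had 0 cells. With matrix genes kept in the clustering 2 members were lower in E7.5 extraembryonic mesoderm-like cells. With single-cell marker scores 1 member was lower in E7.5 visceral endoderm-like and 2 were higher in E8.5 surface ectoderm-like cells. Lamb1 over Lama1 at E7.5 was 10.2 by the longest transcript. Leaving out the 3 cells with all parietal endoderm markers was chosen after the data were seen. The causes of these changes were not tested.

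In the embryo tests, edgeR with embryo as a block (the replicate pairing) called 0.178% and 0.182% of genes in nascent mesoderm-like, 0.0433% and 0.00541% in endoderm-like, and 0.164% and 0.0595% in extraembryonic mesoderm-like cells. Without the block these were 0.371% and 0.346%, 0.186% and 0.112%, and 0.393% and 0.241%, and 2 members were called higher in nascent mesoderm-like (Fn1 and Lama1) and 2 in endoderm-like cells (Fn1 and Col4a2). The block changed no other call of a member. With DESeq2 3, 6 and 3 members were called higher and 0.959% and 1.06%, 1.08% and 0.863%, and 1.23% and 1.10% of genes. With no filter on low counts 3 members were called in nascent mesoderm-like and 2 in endoderm-like cells, and 0.478% and 0.465%, 0.276% and 0.141%, and 0.339% and 0.18% of genes. At least 10 cells of each class left 2 embryos for nascent mesoderm-like cells, with 0.0811% and 0.0541% called, and too few for the other classes, where it was not run. At least 3 cells gave 0.267% and 0.141% in extraembryonic mesoderm-like cells, where Lamc1 turned to −0.34.

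Leaving out 1 plate at a time, the members higher at E8.5 numbered 0 (without E8.5 plate 8) to 4 and those lower 0 to 1 (without E8.5 plate 3 or 8), and Postn ran from −1.07 to 4.38. Members lower in E7.5 endothelium-like cells numbered 0 to 1 (Postn −4.14 to 0.11), in E7.5 visceral endoderm-like cells 1 to 2, in E8.5 endothelium-like cells 1 to 4 and in E8.5 surface ectoderm-like cells 1 to 3 (Postn −4.14 to 0.55). The lowest of these counts came without E7.5 lane plate 4 at E7.5 and without E8.5 plate 8 at E8.5. Without 1 embryo, 0.0595 to 0.0973% and 0.0523 to 0.0667% of genes were called in nascent mesoderm-like, 0.00360 to 0.0108% and 0 to 0.00180% in endoderm-like, and 0.0487 to 0.0721% and 0.0126 to 0.0234% in extraembryonic mesoderm-like cells. Endoderm-like Fn1 was 2.21 to 2.41 and called in none of the 4 fits (0 to 0 members), Npnt there was −4.54 to 4.92, and extraembryonic mesoderm-like Lamc1 was −0.074 to 0.18. No value was had for E7.5 visceral endoderm-like cells without embryo 4 or 5 or for E7.5 endothelium-like cells without lane plate 2, which left fewer than 20 cells.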
